A study of Mus musculus with 12 samples.

Results

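The comparison described here set lung RNA of male wild-type C57Bl/6J mice aged 12 months against that of the same strain and sex aged 3 months, with 3 mice of each age. These 6 libraries were chosen by the age in their labels and belong to a series of 12, in which 3 further mice were studied at 6 months and 3 at 24 months. RNA came from whole minced lungs, and poly(A) RNA was sequenced from 1 library per mouse, which the design text says were analysed independently. No mouse carried a transgene or received an agent, so the groups differed by age as far as the labels say. The 6-month libraries entered the fit to share in the estimate of spread, and the 24-month libraries were left out of it. The sources used here do not give the time of day of collection, body weight or housing.

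The lung exchanges gas across thin type 1 alveolar cells that lie against a capillary bed, while type 2 cells make surfactant, and club and ciliated cells line the airways. Fibroblasts lay down the collagen and elastic fibres that hold the airspaces open, and resident macrophages, B cells and T cells guard the surface. Middle age in a mouse precedes the late-life state in which lungs are known for accumulating antibody-producing cells and for altered matrix, protein quality control and mitochondrial function.

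At 12 months the lung held more mRNA of antibody chains, ribosomal proteins, respiratory chain subunits, antigen presentation by MHC class II, motile cilia and detoxifying enzymes. Several of these counts fell when single mice were left out or the set of libraries changed, as given below. It held less mRNA of several collagen chains, of 6 of 22 circadian clock genes, of the imprinted genes Plagl1, Peg3 and Meg3 and of many long noncoding RNAs. Of 35275 genes 15908 had enough reads to be tested, and 5748 of them (36.1%) had an adjusted p under 0.05 in edgeR's quasi-likelihood test and are called here. The 3021 genes called higher at 12 months were 19.0% of those tested, and the 2727 called lower were 17.1%. Most changes were modest: the median absolute log2 fold change of called genes was 0.74, and 461 of the higher and 868 of the lower genes changed by 2-fold or more. The median over all tested genes was -0.02. Levels below are counts per 1 M gene reads, scaled with TMM (CPM), in each mouse, in the order of mouse 1, 2 and 3. Changes are log2 fold changes of 12 over 3 months ± SE. Many of the genes below were named for a small p. A lack of overlap between the ages describes their values and is no further support. Its share over all tested genes is not given here.

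**Figure D1:**
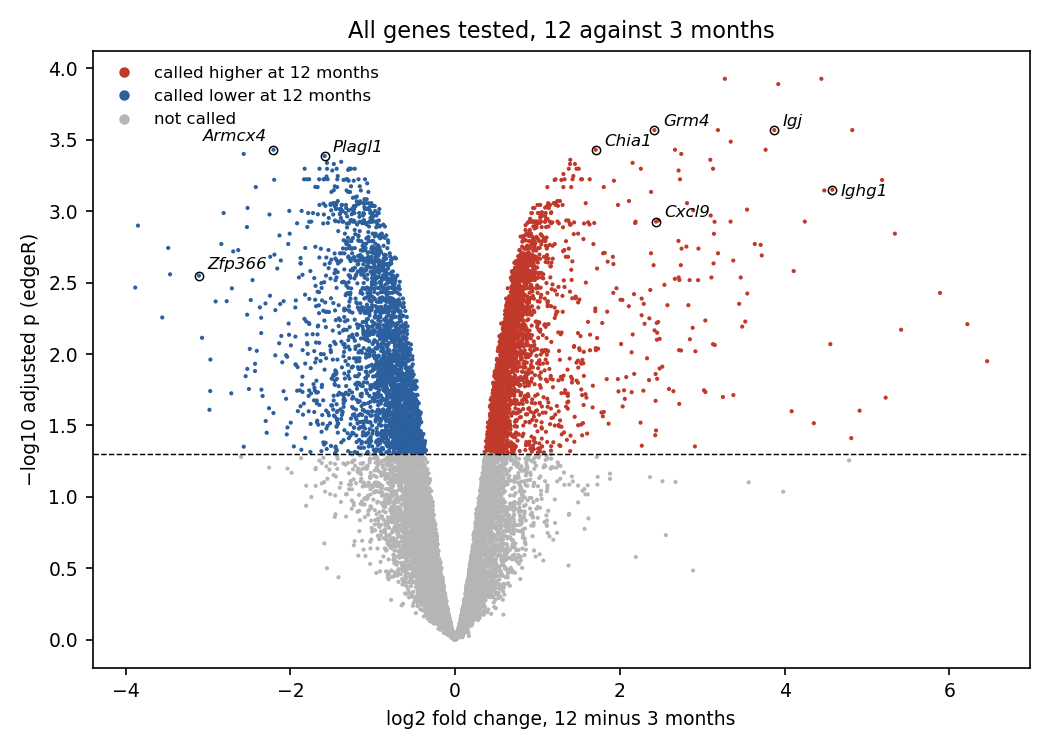
Log2 fold change of each tested gene (12 minus 3 months) against its -log10 adjusted p from edgeR, with genes called higher, called lower and not called in different colours. The 3021 genes called higher and 2727 called lower lie above the dashed line, which marks an adjusted p of 0.05, and 8 named genes are ringed.

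The 6 libraries held 16.1 to 21.2 M gene reads each, and all 17 tissue markers checked were above 1 CPM in every one, from 46.9 to 38100 CPM. Correlations of log2 CPM were 0.9822 to 0.9913 among 3-month mice, 0.9621 to 0.99 among 12-month mice, and 0.9371 to 0.9696 between the ages. On the first principal component of the 9 libraries, which carried 55.25% of the variance, 3-month mouse 1 lay nearest to the 12-month mice among the mice of its age, and the 6-month mice 1 and 2 lay nearer still. In 12-month mouse 3 mitochondrially encoded reads made up 3.12% of gene reads, against 1.652 to 1.956% in the other 5. Reads also fell on shorter genes at 12 months: the median gene length, weighted by reads, was 2575 to 2686 bases at 12 months and 2854 to 3296 at 3 months. The mean GC content of genes weighted by reads was 51.38, 51.5 and 50.38% at 12 months and 50.09 to 50.27% at 3 months. A smooth fitted jointly on the GC content and the length of genes accounted for 31.38% of the variance of the fold changes. In deciles of GC content the median log2 fold change ran from -0.42 in the lowest to 0.51 in the highest, and in deciles of length from 0.48 in the shortest to -0.53 in the longest. Whether this pattern arose in the lungs or in the libraries was not tested.

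**Figure D2:**
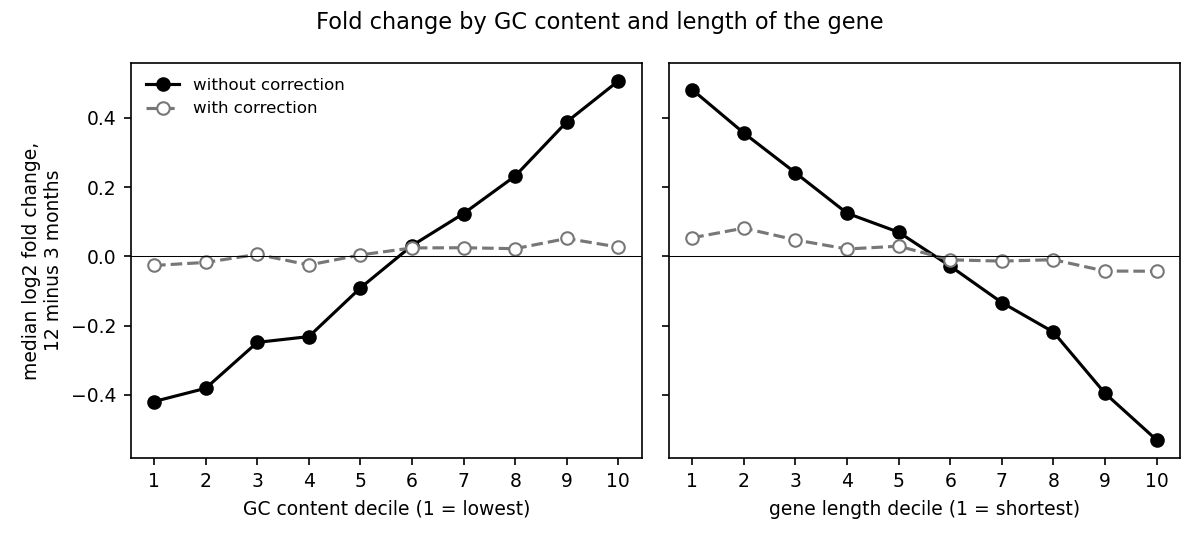
Median log2 fold change (12 minus 3 months) in deciles of genes by GC content and by gene length, without and with the correction. Without it the medians run from -0.42 to 0.51 over GC content and from 0.48 to -0.53 over length, and with it they lie near 0.

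The counts of each group below are therefore also given with a correction, and values of single genes are given with it where it ended a call or turned a sign and for some others. The correction removes from each library its smooth on GC content and length, which by construction removes any change that genes of like GC content and length share. With it 4541 genes (28.5%) were called, 2334 higher (14.7%) and 2207 lower (13.9%). Of the 5748 genes called without it, 2955 (51.41%) were called in the same direction with it, and 5 in the opposite direction. In what follows, "corrected" marks values of that fit. The counts of a group are to be read beside the shares called over all tested genes. Without the correction the share called in the B cell, T cell, endothelial, type 2 cell, senescence and glucocorticoid lists was below the 36.1% over all genes. The counts also turned on single mice. With the 24-month libraries added to the fit the calls were 1010 higher and 1423 lower, so that 41.51% of calls were higher, against 52.56% without those libraries. With 3-month mouse 2 left out they were 1499 higher and 1294 lower, without 3-month mouse 3 1665 and 1473, and without 12-month mouse 3 4253 and 4269. Counts of 2 or fewer genes in a group often moved by 1 or 2 genes when a mouse was left out, and this is given below only where they moved by more.

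**Figure D3:**
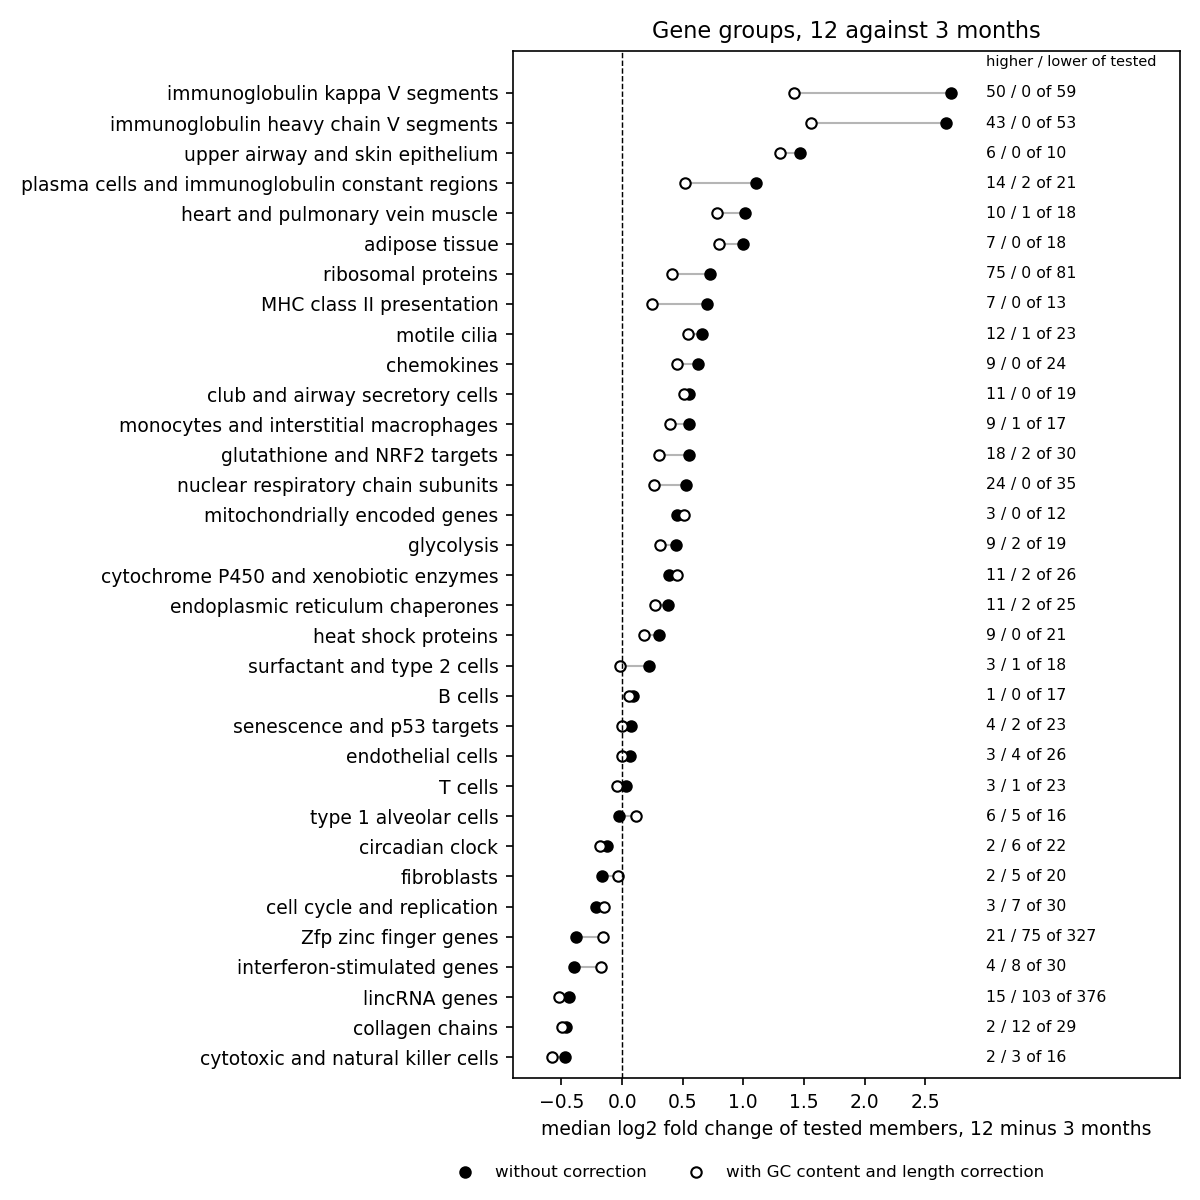
Median log2 fold change (12 minus 3 months) of the tested members of each gene group, without (filled) and with (open) the correction, with the number of members called higher and lower of those tested. Immunoglobulin segments have the highest medians (2.71 and 2.67), and collagen chains, lincRNA genes and natural killer genes are lowest, from -0.44 to -0.47. The read filter favours segments with reads in older mice, which can raise the medians of the segments.

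Antibody genes showed the largest rises. Igj (chr5:88520512-88527891 in mm10), the joining chain of polymeric IgM and IgA, was at 9.42, 7.13 and 13.3 CPM at 3 months and 107, 116 and 215 CPM at 12 months (log2 3.87 ± 0.37, adjusted p = 0.00027). Every 12-month mouse was far above the highest 3-month mouse. Igkc, the kappa light chain constant region, was at 80.8, 55 and 58.9 CPM at 3 months and 501, 656 and 823 CPM at 12 months (log2 3.35 ± 0.34, adjusted p = 0.00033). Ighm, the IgM constant region, was at 128, 119.9 and 101 CPM at 3 months and 830.1, 1161 and 998 CPM at 12 months (log2 3.10 ± 0.34, adjusted p = 0.00044). These groups did not overlap, and the 6-month mice lay between them, with 265, 106 and 117 CPM of Igkc and 455, 212 and 145 of Ighm. Ighg1, an IgG constant region, was at 0.601, 0.251 and 0.651 CPM at 3 months and 12.4, 13.1 and 10.6 CPM at 12 months (log2 4.58 ± 0.60, adjusted p = 0.00071). Ighg2c, another IgG region, was at 1.85, 0 and 10.8 CPM at 3 months and 84.7, 100.2 and 159.7 CPM at 12 months (log2 4.81 ± 1.46, adjusted p = 0.039), where 3-month mouse 2 had no read. That call was lost without 3-month mouse 2 or without any one of the 12-month mice. The authors' deposited comparison gives Ighg2c a log2 fold change of 0.49 with adjusted p = 0.196. The sources used here do not say how reads shared between IgG paralogs were assigned. Corrected values were 3.90 ± 0.31, adjusted p = 0.00030 for Igj, 1.90 ± 0.19, adjusted p = 0.00037 for Igkc and 2.89 ± 0.38, adjusted p = 0.0012 for Ighm.

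Among genes of antibody constant regions and plasma cells 21 were tested, of which 14 were called higher, 2 lower and 5 not, with a median of 1.10 beside -0.02 over all genes. Corrected counts were 10 higher and 0 lower, with a median of 0.52. The 14 included Mzb1, Derl3 and Txndc5, which serve protein secretion in plasma cells, while Prdm1, the transcription factor that drives plasma cell formation, was called lower. Without 3-month mouse 2, or without 12-month mouse 2, 9 were called higher. The summed level of this list was 1211 to 1302 CPM at 3 months and 3247 to 3870 CPM at 12 months.

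Variable segments, which encode the antigen-binding ends of antibody chains, moved with the constant regions. Of 114 heavy chain V segments 53 held enough reads to be tested, 43 of these were called higher and none lower. Of 104 kappa V segments 59 were tested, 50 were called higher and none lower. Segments with reads mainly in older mice pass the read filter more easily. These counts, and the medians and sums of the same segments, therefore describe the tested segments and not the families. Summed over the tested segments, the heavy chain level was 19.3 to 23.9 CPM at 3 months and 142 to 197 at 12, and the kappa level 40.1 to 53.5 and 347 to 578. Every 12-month mouse was above every 3-month mouse in both sums, which the read filter favours, so this adds no support. Ighv1-53 was at 0.693, 0.954 and 1.12 CPM at 3 months and 23.8, 36.9 and 17.3 CPM at 12 months (log2 4.82 ± 0.47, adjusted p = 0.00027). Igkv8-28 was at 0.323, 0.301 and 0.237 CPM at 3 months and 7.32, 4.97 and 7.08 CPM at 12 months (log2 4.45 ± 0.35, adjusted p = 0.00012). Corrected counts were 21 heavy chain and 21 kappa segments higher. V segments are short and alike in sequence, and without 3-month mouse 3 33 kappa segments were called.

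Few genes of mature B cells changed. Of 17 such genes 1, Vpreb3, was called higher and none lower (median 0.09), and none in either direction with the correction. They had summed levels of 197 to 324 CPM at 3 months and 281 to 343 CPM at 12 months. Cd79b, a subunit of the B cell receptor, was at 35.8, 24.8 and 16 CPM at 3 months and 40.8, 33.9 and 41.1 CPM at 12 months (log2 0.59 ± 0.31, adjusted p = 0.15), with overlapping groups. In bulk tissue, more cells of a type and more RNA per cell cannot be told apart.

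Antigen presentation by MHC class II, which shows peptides of engulfed proteins to helper T cells, was raised. Of 13 tested genes 7 were called higher and none lower, with a median of 0.70, and 5 were higher and 1 lower with the correction (median 0.24). H2-Aa, a class II alpha chain, was at 485, 403 and 375 CPM at 3 months and 759, 807 and 776 CPM at 12 months (log2 0.89 ± 0.15, adjusted p = 0.0018). H2-Ab1, its beta chain partner, was at 353, 276 and 254 CPM at 3 months and 584, 589.6 and 649.9 CPM at 12 months (log2 1.05 ± 0.18, adjusted p = 0.0017). H2-DMb1, which helps load peptides, was at 57.6, 45.9 and 40.9 CPM at 3 months and 87.3, 96.6 and 83.6 CPM at 12 months (log2 0.89 ± 0.16, adjusted p = 0.0021). None of these groups overlapped, and all 3 genes were also called with the correction. Of 18 class I genes 7 were called higher and 1 lower, and 3 and 1 with the correction. H2-K1, a classical class I chain, was at 1277, 998 and 894 CPM at 3 months and 1614, 1778 and 1473 CPM at 12 months (log2 0.62 ± 0.16, adjusted p = 0.012). Nlrc5, a transcriptional activator of class I genes, was called lower (-0.95 ± 0.26), with its level at 18.9, 36.4 and 21.6 CPM at 3 months and 14.4, 16.3 and 8.97 CPM at 12 months. The class I count rested on single mice: it was 1 without 3-month mouse 2 or 3, 3 without 12-month mouse 1, and 4 without 12-month mouse 2. The call of H2-K1 was lost without 3-month mouse 2 or 3, and that of Nlrc5 without 3-month mouse 2.

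Chemokines, which attract leukocytes, were called higher in 9 of 24 tested genes and lower in none (median 0.63), and in 8 with the correction. Cxcl9, an interferon-gamma induced attractant of T cells, was at 0.508, 0.703 and 0.71 CPM at 3 months and 3.61, 2.71 and 4.13 CPM at 12 months (log2 2.44 ± 0.38, adjusted p = 0.0012). Ccl8, a monocyte attractant, was at 2.17, 1.71 and 2.01 CPM at 3 months and 5.59, 5.35 and 7.4 CPM at 12 months (log2 1.63 ± 0.26, adjusted p = 0.0012). Ccl19, which guides cells into lymphoid tissue, was at 1.02, 0.653 and 0.355 CPM at 3 months and 2.08, 2.52 and 1.77 CPM at 12 months (log2 1.61 ± 0.37, adjusted p = 0.0060). These are low levels, but the ages did not overlap in any of the 3 genes. Leaving out 3-month mouse 2 or 3 gave 3 and 4 called chemokines. Among interferon-stimulated genes falls outnumbered rises, with 4 of 30 called higher, 8 lower and a median of -0.39. Gbp3, a guanylate-binding protein, was at 36.3, 36.7 and 27.4 CPM at 3 months and 15.3, 13.1 and 22.3 CPM at 12 months (log2 -0.99 ± 0.20, adjusted p = 0.0041). Ifi44 was at 7.25, 6.73 and 7.4 CPM at 3 months and 2.23, 1.45 and 4.72 CPM at 12 months (log2 -1.36 ± 0.32, adjusted p = 0.0069). Corrected counts were 1 higher and 7 lower. When 3-month mouse 2 was left out, 0 were called higher and 3 lower, without 3-month mouse 3, 0 and 4, and without 12-month mouse 1, 1 and 5, while without 12-month mouse 2 none was called higher.

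Monocyte and interstitial macrophage genes were called higher in 9 of 17 and lower in 1 (median 0.55), and in 7 and 2 with the correction. Fcgr4, an activating receptor for IgG, was at 8.64, 7.03 and 7.16 CPM at 3 months and 12.7, 15.3 and 18.1 CPM at 12 months (log2 1.01 ± 0.18, adjusted p = 0.0021). Cd14, the co-receptor for bacterial lipopolysaccharide, was at 38.4, 31.5 and 30.7 CPM at 3 months and 51.7, 63.2 and 58.6 CPM at 12 months (log2 0.79 ± 0.15, adjusted p = 0.0026). Cd163, a scavenger receptor of haemoglobin on resident macrophages, fell, with 13.2, 17.4 and 23.1 CPM at 3 months and 7.17, 6.92 and 8.97 CPM at 12 months (log2 -1.22 ± 0.21, adjusted p = 0.0018). Alveolar macrophage genes were called in both directions, with 2 of 19 higher and 2 lower, and 2 and 3 with the correction. Siglec5, as the sialic acid receptor of these macrophages is named in the deposited table, was at 15.7, 15.9 and 14.5 CPM at 3 months and 9.4, 9.88 and 4.85 CPM at 12 months (log2 -0.93 ± 0.23, adjusted p = 0.0086). Among complement genes 5 of 16 were higher and none lower, and 2 and none with the correction. C4b, an activator of the classical pathway, was at 285, 386 and 432 CPM at 3 months and 654, 784 and 773 CPM at 12 months (log2 1.00 ± 0.18, adjusted p = 0.0023; corrected 1.02 ± 0.17). The C1q chains C1qa, C1qb and C1qc were called only without the correction, with 0.74 ± 0.16, 0.70 ± 0.17 and 0.53 ± 0.14 against corrected values of 0.19 ± 0.12, 0.20 ± 0.14 and 0.01 ± 0.09. Without 3-month mouse 2, 2 complement genes were called, and C1qb and C1qc were not among them.

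T cell genes were called in both directions, and most natural killer genes had values below 0, most of them without a call. Of 23 T cell genes 3 were higher and 1 lower (median 0.03), and 3 and 4 with the correction. Lef1, a transcription factor of naive T cells, fell from 11.9, 12 and 7.81 to 6.13, 5.22 and 4.98 CPM (log2 -0.95 ± 0.21, adjusted p = 0.0050). Among 16 natural killer genes, 3 of which had values above 0, 2 were called higher and 3 lower (median -0.47), and 1 and 6 with the correction. Klrc2, an activating receptor of natural killer cells, was at 2.45, 2.86 and 2.84 CPM at 3 months and 0.495, 0.692 and 0.852 CPM at 12 months (log2 -2.01 ± 0.32, adjusted p = 0.0014), and its reads may be shared with close paralogs. Gzmk, a granzyme of effector-memory T cells, was at 0.231, 0.201 and 0.296 CPM at 3 months and 0.445, 1.38 and 1.57 CPM at 12 months (log2 2.17 ± 0.59, adjusted p = 0.014), a call lost without 3-month mouse 2. The natural killer count was 10 lower without 12-month mouse 3, and 1 lower without 12-month mouse 1 or 3-month mouse 2. The T cell count was 1 higher without 3-month mouse 2 or 3, 6 higher without 12-month mouse 2, and 4 lower without 12-month mouse 3.

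Airway epithelial genes were raised. Of 23 motile cilia genes 12 were called higher and 1 lower (median 0.66), and 15 and 0 with the correction (median 0.54). Foxj1, the master transcription factor of motile cilia, was at 129, 121 and 152 CPM at 3 months and 256, 329 and 254 CPM at 12 months (log2 1.06 ± 0.16, adjusted p = 0.0011; corrected 0.52 ± 0.14). Tekt4, a tektin of the ciliary axoneme, was at 14.5, 10.8 and 14.6 CPM at 3 months and 30.3, 37.5 and 32.3 CPM at 12 months (log2 1.33 ± 0.17, adjusted p = 0.00060). Pifo, which acts in cilium disassembly, was at 13.7, 10.3 and 12.4 CPM at 3 months and 22, 27.1 and 33.6 CPM at 12 months (log2 1.18 ± 0.18, adjusted p = 0.0012). In all 3 genes each 12-month mouse was above each 3-month mouse, and the 3 calls held in every alternative setting. Leaving out any single mouse moved the count of higher cilia genes by less than 1.5 times, while 4 were lower without 12-month mouse 3.

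Of 19 club and secretory cell genes 11 were called higher and none lower (median 0.55), and 12 and 2 with the correction. Scgb3a2, a secretoglobin of club cells, was at 1280, 783 and 967 CPM at 3 months and 1646, 2010 and 2566 CPM at 12 months (log2 1.04 ± 0.21, adjusted p = 0.0034). Cbr2, a carbonyl reductase abundant in club cells, was at 5476, 4224 and 5313 CPM at 3 months and 8537, 11330 and 9066 CPM at 12 months (log2 0.95 ± 0.17, adjusted p = 0.0021). Scgb1a1, the defining club cell protein, was not called (log2 0.23 ± 0.17, adjusted p = 0.30), with overlapping groups of 34730, 24350 and 30660 CPM at 3 months and 30970, 38110 and 36270 CPM at 12 months. With the correction it was called lower (-0.68 ± 0.13, adjusted p = 0.0043), so its direction turned on the fit. When 3-month mouse 2 was left out, 7 genes of this list were called higher. Among 26 genes of cytochrome P450 and other xenobiotic enzymes 11 were higher and 2 lower, and 13 and 1 with the correction. Cyp2a5, which oxidises nicotine and coumarin, was at 143, 119 and 140 CPM at 3 months and 218, 349 and 299.8 CPM at 12 months (log2 1.11 ± 0.22, adjusted p = 0.0032). Por, the reductase that feeds electrons to these enzymes, was at 516, 515 and 586 CPM at 3 months and 931, 1141 and 1088 CPM at 12 months (log2 0.97 ± 0.15, adjusted p = 0.0013). Cyp1a1, the target of the aryl hydrocarbon receptor, fell, with 18, 20.9 and 20.7 CPM at 3 months and 7.67, 8.68 and 9.76 CPM at 12 months (log2 -1.19 ± 0.19, adjusted p = 0.0012). The lower count was 5 without 12-month mouse 3 and 4 without 3-month mouse 1. Cyp2a4, a close paralog of Cyp2a5, was at 0.185, 0.301 and 0.237 CPM at 3 months and 1.34, 1.2 and 5.24 CPM at 12 months (log2 3.38 ± 0.61, adjusted p = 0.0022), with most of the mean from 12-month mouse 3, and reads of this pair may be split between them.

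Genes that mark basal and squamous epithelium were also raised. Krt5, a keratin of basal cells, was at 1.89, 1.91 and 1.24 CPM at 3 months and 3.31, 11.7 and 13 CPM at 12 months (log2 2.45 ± 0.56, adjusted p = 0.0061). Krt15 was at 4.34, 3.27 and 3.85 CPM at 3 months and 10.7, 34.1 and 18.2 CPM at 12 months (log2 2.45 ± 0.55, adjusted p = 0.0071). Krt4, a keratin of squamous lining, was at 0.139, 0.352 and 0.237 CPM at 3 months and 0.792, 2.58 and 2.42 CPM at 12 months (log2 2.95 ± 0.58, adjusted p = 0.0030). In each of these keratins 12-month mouse 1 was the lowest of its age, and the call of Krt5 was lost without 12-month mouse 3. Dmbt1, a mucosal scavenger protein, was at 0.277, 0.101 and 0.414 CPM at 3 months and 1.83, 3.08 and 2.1 CPM at 12 months (log2 3.14 ± 0.57, adjusted p = 0.0023). Of 10 tested genes of upper airway and skin epithelium 6 were higher and none lower, and 4 and none with the correction. Without 12-month mouse 3, 3 were higher. The summed levels of these genes were 491 to 556 CPM at 3 months and 915 to 1974 CPM at 12 months. At 6 months the sum varied widely between mice, from 269 to 1252 CPM. How much of these levels came from tissue beside the lung was not tested.

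Alveolar genes were called in both directions. Sftpc, a surfactant protein of type 2 cells, was at 20610, 15460 and 18690 CPM at 3 months and 27140, 29470 and 28400 CPM at 12 months (log2 0.63 ± 0.15, adjusted p = 0.0071; corrected 0.18 ± 0.10, adjusted p = 0.22). Ager, a receptor of type 1 cells, was at 3088, 2343 and 2752 CPM at 3 months and 4428, 4804 and 3967 CPM at 12 months (log2 0.69 ± 0.15, adjusted p = 0.0057; corrected 0.14 ± 0.10, adjusted p = 0.32). Both were higher in every 12-month mouse and neither was called with the correction. Of 18 surfactant and type 2 genes 3 were higher and 1 lower (median 0.22), and 1 and 1 with the correction. Of 16 type 1 genes 6 were higher and 5 lower (median -0.02), and 2 and 2 with the correction. Akap5, an anchor of protein kinase A enriched in type 1 cells, fell, with 326, 376 and 413 CPM at 3 months and 160.1, 127 and 189 CPM at 12 months (log2 -1.23 ± 0.18, adjusted p = 0.00097; corrected -0.68 ± 0.10). Igfbp2, an insulin-like growth factor binding protein of mature type 1 cells, rose, with 355, 280.3 and 282 CPM at 3 months and 675, 691 and 628 CPM at 12 months (log2 1.12 ± 0.15, adjusted p = 0.00068; corrected 0.48 ± 0.09). The type 1 counts were 3 and 3 without 12-month mouse 2 and also without either of 3-month mice 2 and 3; 3 were lower without 12-month mouse 1, and 6 type 2 genes were higher without 12-month mouse 3.

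Endothelial genes were called higher in 3 of 26 and lower in 4 (median 0.07), and in 1 and 3 with the correction. Kdr, the main receptor of vascular endothelial growth factor, was at 342, 412 and 344 CPM at 3 months and 281, 219 and 190.5 CPM at 12 months (log2 -0.67 ± 0.17, adjusted p = 0.0091), a call lost without 3-month mouse 2 and with the correction (-0.24 ± 0.12, adjusted p = 0.15). Pecam1, a junction protein of all endothelium, was not called (log2 0.24 ± 0.14, adjusted p = 0.19), at 864, 835 and 815 CPM at 3 months and 1105, 915 and 945 CPM at 12 months. Smooth muscle and pericyte genes split, with 4 of 18 higher and 3 lower, and 4 and 3 with the correction. Acta2, smooth muscle actin, was at 228, 146 and 115 CPM at 3 months and 278, 275 and 333 CPM at 12 months (log2 0.86 ± 0.22, adjusted p = 0.010), while Mylk, the myosin light chain kinase, was at 299.8, 400.2 and 348 CPM at 3 months and 233, 197 and 159 CPM at 12 months (log2 -0.83 ± 0.17, adjusted p = 0.0036) and Myh11, smooth muscle myosin, at 158, 205 and 152 CPM at 3 months and 94.5, 87.4 and 95.4 CPM at 12 months (log2 -0.89 ± 0.16, adjusted p = 0.0023; corrected -0.53 ± 0.20, adjusted p = 0.066). The Acta2 call was lost without 3-month mouse 2 or 3, and 2 smooth muscle genes were then higher. Without 12-month mouse 3, 6 endothelial genes were higher and 9 lower, while without 3-month mouse 2 none was called in either direction, without 3-month mouse 3 none was higher and 1 lower, without 12-month mouse 2 1 and 1, and without 12-month mouse 1 none was higher.

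Collagen chains were lowered. Of 29 tested chains 12 were called lower and 2 higher (median -0.46), and 16 and 1 with the correction (median -0.50). Col3a1 (chr1:45311538-45349706), a fibrillar chain of distensible tissue, was at 493, 577 and 446 CPM at 3 months and 244, 211 and 133 CPM at 12 months (log2 -1.37 ± 0.21, adjusted p = 0.0012; corrected -1.14 ± 0.14). Col5a2, a chain that starts and limits fibril growth, was at 92.8, 119 and 90.3 CPM at 3 months and 40.6, 38.2 and 24.5 CPM at 12 months (log2 -1.55 ± 0.19, adjusted p = 0.00060). Col4a3 and Col4a5, basement membrane chains that share a trimer in the alveolar wall, were at 178, 358 and 348 CPM at 3 months and 83.4, 81.7 and 114 CPM at 12 months (log2 -1.67 ± 0.25, adjusted p = 0.0011) and at 135, 207 and 187 CPM at 3 months and 90.4, 88.5 and 48.7 CPM at 12 months (log2 -1.22 ± 0.23, adjusted p = 0.0025). In all 4 chains every 12-month mouse was below every 3-month mouse, and the calls held in every alternative setting. Col1a1, the chief chain of type I collagen, was at 269.7, 312 and 253 CPM at 3 months and 248, 187 and 171 CPM at 12 months. It was not called (log2 -0.46 ± 0.23, adjusted p = 0.13), though it was with the correction (-0.74 ± 0.16, adjusted p = 0.0071). The 2 chains called higher were Col8a2 and Col18a1, and leaving out any single mouse moved the count of lower chains by less than 1.5 times.

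Genes that build and crosslink elastic fibres went both ways, with 7 of 26 higher and 5 lower, and 4 and 4 with the correction. Lox, which crosslinks collagen and elastin, fell, with 56.4, 69.8 and 67.9 CPM at 3 months and 23.3, 18.8 and 38.3 CPM at 12 months (log2 -1.27 ± 0.23, adjusted p = 0.0022; corrected -0.86 ± 0.13). Plod3 and Plod1, lysyl hydroxylases that modify collagen, rose by 0.71 ± 0.14 and 0.70 ± 0.15, with Plod3 at 86.7, 76.9 and 82.5 CPM at 3 months and 133, 128 and 142 CPM at 12 months. Eln, elastin itself, was at 123, 131 and 121 CPM at 3 months and 140.5, 125 and 136 CPM at 12 months and was not called (log2 0.10 ± 0.14, adjusted p = 0.59), while its corrected value was called lower (-0.36 ± 0.12, adjusted p = 0.044), so no direction is given. Among proteases Adamts1 and Adamts9, which cleave proteoglycans, fell by 1.10 and 1.28 on the log2 scale, with Adamts1 at 97, 127 and 109 CPM at 3 months and 53.4, 45 and 56.8 CPM at 12 months (adjusted p = 0.00094). Fibroblast genes were lower in 5 of 20 and higher in 2, and in 5 and 1 with the correction. Those lower included Npnt, a ligand of integrin at the basement membrane (-0.77 ± 0.18), and Fn1, fibronectin (-0.97 ± 0.25). Without 3-month mouse 2, 3 elastic fibre genes were higher and 2 lower, without 3-month mouse 3, 2 and 3, without 12-month mouse 1, 2 were higher, and without 12-month mouse 2, 3 were lower. For fibroblasts 3 were lower without 3-month mouse 2 and 8 without 12-month mouse 3, and the Fn1 call was lost without 3-month mouse 2.

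Nearly all ribosomal protein genes rose. Of 81 tested genes 75 were called higher and none lower (median 0.73), and 51 and 2 with the correction (median 0.41). Rpl14, a protein of the large subunit, was at 439, 339 and 378 CPM at 3 months and 703, 736 and 712 CPM at 12 months (log2 0.90 ± 0.15, adjusted p = 0.0015; corrected 0.42 ± 0.09). Rpl35, also of the large subunit, was at 38.8, 24.8 and 28.4 CPM at 3 months and 59.6, 63.7 and 76.4 CPM at 12 months (log2 1.12 ± 0.19, adjusted p = 0.0018; corrected 0.66 ± 0.14). Summed over the list, the level was 25780 to 36330 CPM at 3 months and 45400 to 54760 CPM at 12 months, without overlap. These genes are short, with a median length of 935 bases, and many have processed pseudogenes that could share reads. When 3-month mouse 2 was left out, 49 were called.

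**Figure D4:**
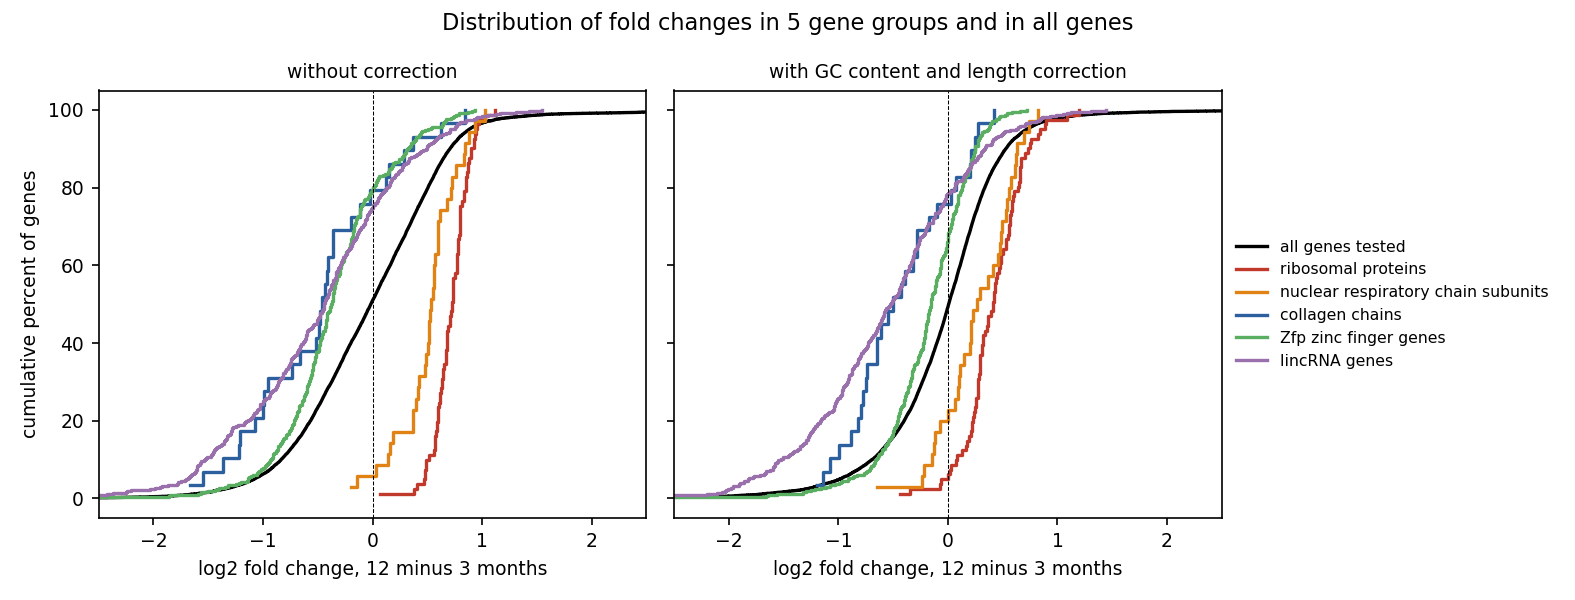
Cumulative distribution of log2 fold changes (12 minus 3 months) in 5 gene groups and in all tested genes, without and with the correction. Without it the curve of the 81 ribosomal protein genes lies to the right (median 0.73) and those of the 29 collagen chains (median -0.46) and 376 lincRNA genes (median -0.44) to the left of all genes (median -0.02).

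Genes of energy metabolism rose with them. Of 35 nuclear-encoded respiratory chain subunits 24 were called higher and none lower (median 0.53), and 17 and 1 with the correction (median 0.26). Ndufa10, a subunit of complex I, was at 66.4, 53.8 and 56.9 CPM at 3 months and 97.7, 111 and 117 CPM at 12 months (log2 0.88 ± 0.15, adjusted p = 0.0018). Uqcrc1, of complex III, was at 121, 101 and 96.8 CPM at 3 months and 187, 200.4 and 263 CPM at 12 months (log2 1.03 ± 0.17, adjusted p = 0.0018). Of 12 mitochondrially encoded genes 3 were higher and none lower, and 10 and none with the correction. Their summed level was 15950 to 19090 CPM at 3 months and 20520 to 33000 CPM at 12 months, the top value being that of 12-month mouse 3. mt-Co1, a core subunit of complex IV, was at 6242, 7201 and 7568 CPM at 3 months and 8696, 8927 and 14190 CPM at 12 months (log2 0.60 ± 0.19, adjusted p = 0.028), a call lost without 12-month mouse 3 or any one 3-month mouse. In glycolysis 9 of 19 genes were higher and 2 lower (median 0.45), and 10 and 2 with the correction. Pfkl, a phosphofructokinase, was at 66.9, 61.6 and 66.7 CPM at 3 months and 117, 124 and 123 CPM at 12 months (log2 0.90 ± 0.14, adjusted p = 0.0012). Tpi1, triose phosphate isomerase, was at 149, 113 and 123 CPM at 3 months and 228, 263 and 264 CPM at 12 months (log2 0.97 ± 0.15, adjusted p = 0.0012). The respiratory chain count was 10 without 3-month mouse 2 and 11 without 3-month mouse 3, the mitochondrially encoded count 1 without 12-month mouse 3 or 3-month mouse 2 or 3, and the glycolysis count 14 without 12-month mouse 3.

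Lipid genes had lower medians than respiratory chain subunits without the correction. These were 0.26 in fatty acid oxidation and 0.12 in cholesterol synthesis, beside 0.53. With the correction the 3 medians lay closer together, at 0.20, 0.26 and 0.26. In fatty acid oxidation 6 of 21 were higher and none lower, and 8 and 1 with the correction. Hadh, of the mitochondrial beta-oxidation cycle, was at 106, 86.2 and 90.6 CPM at 3 months and 153, 150.2 and 164 CPM at 12 months (log2 0.72 ± 0.14, adjusted p = 0.0030). In cholesterol synthesis 7 of 21 were higher and 2 lower, and 9 and 0 with the correction. In fatty acid oxidation 2 were called without 3-month mouse 2 and 3 without 3-month mouse 3, and in cholesterol synthesis 6 were lower without 12-month mouse 3.

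Protective enzymes and chaperones were also raised. Of 30 genes of glutathione metabolism and NRF2 targets, the programme that answers oxidants, 18 were called higher and 2 lower (median 0.55), and 12 and 2 with the correction (median 0.31). The 2 called lower were Nfe2l2, which encodes NRF2 itself, and Gclc, which makes the glutathione precursor. Gstp1, a glutathione transferase, was at 109.6, 75.6 and 82 CPM at 3 months and 165, 179 and 183 CPM at 12 months (log2 0.98 ± 0.16, adjusted p = 0.0015). Gpx2, a glutathione peroxidase of epithelia, was at 32.4, 24.9 and 29.4 CPM at 3 months and 55.5, 70.1 and 48.7 CPM at 12 months (log2 1.01 ± 0.17, adjusted p = 0.0016). Osgin1, an oxidant-induced regulator, was at 33.1, 26.7 and 32.3 CPM at 3 months and 61, 64.9 and 58.4 CPM at 12 months (log2 1.00 ± 0.14, adjusted p = 0.00091). None of these groups overlapped and all 3 genes were called with the correction. Of 25 endoplasmic reticulum chaperones 11 were higher and 2 lower, and 9 and 1 with the correction. Calr, a calcium-binding chaperone of glycoproteins, was at 586, 514 and 522 CPM at 3 months and 1005, 1013 and 962 CPM at 12 months (log2 0.88 ± 0.14, adjusted p = 0.0012; corrected 0.81 ± 0.10). Manf, a secreted factor of the unfolded protein response, was at 85.4, 65.9 and 74.4 CPM at 3 months and 142, 145 and 133 CPM at 12 months (log2 0.90 ± 0.15, adjusted p = 0.0018). Of 21 heat shock genes 9 were higher and none lower, and 10 and 2 with the correction. Hspb1, a small chaperone, was at 133, 102 and 111 CPM at 3 months and 278, 248 and 213 CPM at 12 months (log2 1.09 ± 0.16, adjusted p = 0.0011). Stip1, which links HSP70 to HSP90, was at 96.9, 94.1 and 110.5 CPM at 3 months and 190.5, 193 and 189.8 CPM at 12 months (log2 0.93 ± 0.14, adjusted p = 0.0012). With 3-month mouse 2 left out the higher counts were 11, 6 and 5 for NRF2 targets, endoplasmic reticulum chaperones and heat shock genes, and without 3-month mouse 3 the chaperones had 7. Lower counts without 12-month mouse 3 were 6 for these chaperones and 3 for heat shock genes.

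Several circadian regulators were lowered. In the clock, BMAL1 (gene Arntl) and CLOCK bind E-box sequences to drive Per, Cry, Ciart and Nr1d genes, whose products repress that drive, and DBP, TEF and HLF act on D-box sequences. Of 22 clock genes 6 were called lower, Hlf, Per3, Nr1d2, Ciart, Per2 and Rora, and 2 higher, Nfil3 and Nr1d1, with a median of -0.13. With the correction 5 were lower and none higher. Of all tested genes 17.1% were called lower and 19.0% higher, and 13.9% and 14.7% with the correction. Calls in either direction were thus about as frequent in this list as over all genes (36.1%). With the correction they were less frequent than over all genes (28.5%). The promoter stretches of Ciart and Per3 are shown because both genes fell in every setting and these stretches hold the sequences that clock factors are known to bind. Sequences are from RefSeq's table for GRCm38.p6, each 5′ to 3′ on the gene's own strand, here the minus strand, with the matched letters in capitals. The Ciart stretch (chr3:95882255-95882356) runs from 128 to 27 bases before the start and holds 3 E-box matches (CACGTG), and the Per3 stretch (chr4:151044804-151044882) runs from 217 to 139 bases before the start and holds 2 D-box matches (TTATGTAA).
Ciart: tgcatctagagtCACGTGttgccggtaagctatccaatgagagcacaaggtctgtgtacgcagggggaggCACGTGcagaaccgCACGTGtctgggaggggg
Per3: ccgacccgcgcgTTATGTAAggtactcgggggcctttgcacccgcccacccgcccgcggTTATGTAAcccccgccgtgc
Both motifs were searched on both strands of the 250 bases before each start and do not overlap one another. The E-box letters stood in 1978 of 32851 promoter windows (6.02%), and in 5 of the 18 clock genes in that table, Bhlhe41, Ciart, Cry1, Per1 and Tef. The D-box letters stood in 269 windows (0.819%), and among the clock genes in that of Per3. Of the clock genes with E-box letters only Ciart was called lower. Nr1d2, which also fell in every setting, was not among the clock genes with a match. The percentages count windows and not genes, and the 32851 windows belong to 27025 genes. A match is a description of the letters and shows no binding.

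Per3, a period protein, was at 89.3, 127 and 127 CPM at 3 months and 46.6, 63.8 and 20.04 CPM at 12 months (log2 -1.39 ± 0.31, adjusted p = 0.0058; corrected -1.14 ± 0.20). Ciart, a repressor of CLOCK and BMAL1, was at 35.7, 31.6 and 25.4 CPM at 3 months and 16.8, 18.4 and 11 CPM at 12 months. It fell by 1.00 ± 0.24 on the log2 scale (adjusted p = 0.0085; corrected -1.19 ± 0.20). Nr1d2, the nuclear receptor REV-ERB beta, was at 157, 177 and 169.6 CPM at 3 months and 73.6, 69.3 and 130.1 CPM at 12 months (log2 -0.88 ± 0.21, adjusted p = 0.0077; corrected -0.43 ± 0.10). In these 3 genes the ages did not overlap, 12-month mouse 3 was the lowest for Per3 and Ciart, and for Nr1d2 it was the highest of its age. Hlf was at 37.4, 53.7 and 43.3 CPM at 3 months and 21.4, 23.4 and 27.1 CPM at 12 months (log2 -0.90 ± 0.19, adjusted p = 0.0041; corrected -0.40 ± 0.16, adjusted p = 0.078). Nr1d1, the paralog REV-ERB alpha, was at 177, 228 and 195 CPM at 3 months and 334, 287 and 266 CPM at 12 months (log2 0.56 ± 0.17, adjusted p = 0.025), and its call was lost without 12-month mouse 1, without 3-month mouse 1 or 3, and with the correction (0.19 ± 0.13, adjusted p = 0.29). Arntl was at 7.44, 5.78 and 5.62 CPM at 3 months and 9.25, 6.17 and 7.79 CPM at 12 months (log2 0.30 ± 0.27, adjusted p = 0.40). Dbp was at 115, 113 and 89.7 CPM at 3 months and 128, 146 and 107 CPM at 12 months (log2 0.27 ± 0.19, adjusted p = 0.29), both with overlapping groups. The corrected value of Dbp had the opposite sign (-0.36 ± 0.14, adjusted p = 0.077). Clock genes vary with the hour, so age and hour of collection cannot be told apart here.

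Genes that respond within minutes to stimuli or to glucocorticoid hormone moved in both directions. Fosb, an AP-1 subunit, was at 4.8, 6.98 and 3.55 CPM at 3 months and 41.7, 66.5 and 28.9 CPM at 12 months (log2 3.15 ± 0.69, adjusted p = 0.0086), and at 23.6, 57 and 6.69 CPM in the 6-month mice. That call was lost without 12-month mouse 2 and without 3-month mouse 3. Nr4a2, a nuclear receptor of the same class of early genes, fell, with 11.6, 13.3 and 11.7 CPM at 3 months and 4.3, 4.78 and 3.93 CPM at 12 months (log2 -1.49 ± 0.18, adjusted p = 0.00052), while Nr4a1 rose, with 42.8, 49.8 and 31.3 CPM at 3 months and 82.4, 87 and 61 CPM at 12 months (log2 0.89 ± 0.20, adjusted p = 0.0051). Of 27 early genes 8 were higher and 4 lower, and 3 and 5 with the correction. Of 15 glucocorticoid targets 4 were lower and 1 higher, with and without the correction. Klf9, a direct target of the glucocorticoid receptor, was at 164, 258 and 278 CPM at 3 months and 96.9, 98.7 and 123 CPM at 12 months (log2 -1.13 ± 0.20, adjusted p = 0.0022; corrected -1.01 ± 0.18). Hif3a was at 6.88, 10.9 and 17.3 CPM at 3 months and 3.61, 4.66 and 3.67 CPM at 12 months (log2 -1.55 ± 0.34, adjusted p = 0.0051). Without 3-month mouse 3, 4 early genes were higher and 1 lower, 1 was lower without 3-month mouse 2 and 2 without 12-month mouse 1 or 2, and 2 glucocorticoid targets were lower without 12-month mouse 1 or 3-month mouse 3.

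Markers of senescence were called in both directions. Cdkn1a, the p21 inhibitor of the cell cycle, was at 84.6, 73.1 and 93 CPM at 3 months and 111, 106 and 99 CPM at 12 months (log2 0.33 ± 0.18, adjusted p = 0.16). Cdkn2a, which encodes p16 and p19, was at 0.647, 0.904 and 1.12 CPM at 3 months and 1.58, 1.26 and 0.786 CPM at 12 months (log2 0.47 ± 0.38, adjusted p = 0.35), with a corrected value of the opposite sign (-0.07 ± 0.39, adjusted p = 0.91). Of 23 genes of senescence and p53 targets 4 were called higher and 2 lower (median 0.08), and 2 and 3 with the correction. The share called in either direction was below that over all tested genes in both fits (36.1%, and 28.5% with the correction). Gdf15, a secreted stress factor, was at 0.924, 0.904 and 0.651 CPM at 3 months and 2.38, 2.77 and 4.39 CPM at 12 months (log2 1.92 ± 0.34, adjusted p = 0.0021; corrected 1.29 ± 0.33), and Mdm2, the ligase that degrades p53, fell, with 76.3, 73.8 and 74.7 CPM at 3 months and 39.4, 34.9 and 43.7 CPM at 12 months (log2 -0.93 ± 0.15, adjusted p = 0.0015; corrected -0.78 ± 0.10). Sirt1, a deacetylase tied to lifespan, fell, with 33.4, 35.1 and 37.2 CPM at 3 months and 17, 17.8 and 19.7 CPM at 12 months (log2 -0.96 ± 0.15, adjusted p = 0.0012; corrected -0.51 ± 0.11). The ages did not overlap in Gdf15, Mdm2 or Sirt1. Without 12-month mouse 3, 7 genes of this list were higher and 5 lower, and without 3-month mouse 3, 2 were higher.

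Genes of growth were called in both directions. Of 19 genes of insulin-like growth factors and imprinted loci, several of which are known to be most active in juvenile growth, 6 were lower and 3 higher, and 6 and 3 with the correction. Their median was -0.11, and their summed level was 2217 to 2274 CPM at 3 months and 2504 to 2977 CPM at 12 months. Plagl1, an imprinted zinc finger that activates others of this network, was at 39.1, 43 and 38.6 CPM at 3 months and 14.4, 11.1 and 14.7 CPM at 12 months (log2 -1.58 ± 0.17, adjusted p = 0.00041; corrected -1.14 ± 0.13). Peg3, another paternally expressed zinc finger gene, was at 11.1, 14.5 and 15.1 CPM at 3 months and 3.61, 2.96 and 5.76 CPM at 12 months (log2 -1.73 ± 0.25, adjusted p = 0.0010). Meg3, a maternally expressed noncoding RNA, was at 9.65, 18.5 and 13.9 CPM at 3 months and 3.76, 5.22 and 2.1 CPM at 12 months (log2 -1.92 ± 0.30, adjusted p = 0.0012). All 3 were lower in each 12-month mouse than in each 3-month mouse and were called in every setting. Igf1, the hormone-like growth factor, was not called (log2 -0.68 ± 0.29, adjusted p = 0.079), with 13.2, 11.8 and 14.3 CPM at 3 months and 6.43, 6.23 and 11.9 CPM at 12 months. It was called without 12-month mouse 3 and under limma voom. Of 30 cell cycle genes 7 were lower and 3 higher, and 4 and 3 with the correction. Rrm2, a subunit of ribonucleotide reductase needed for DNA synthesis, was at 8.91, 6.43 and 7.87 CPM at 3 months and 3.66, 4.53 and 2.88 CPM at 12 months (log2 -1.07 ± 0.26, adjusted p = 0.0079). The cell cycle counts were 12 lower and 6 higher without 12-month mouse 3, 3 and 1 without 12-month mouse 1, 2 and 1 without 12-month mouse 2, 3 and 0 without 3-month mouse 2, and 2 and 0 without 3-month mouse 3, and without 12-month mouse 3 the imprinted list had 8 higher.

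Long noncoding RNAs were lowered more often than raised. Of 376 tested lincRNA genes 103 were called lower and 15 higher (median -0.44), and 101 and 8 with the correction (median -0.52). Malat1 (chr19:5795690-5802672), an abundant nuclear RNA tied to splicing speckles, was at 649, 1191 and 1177 CPM at 3 months and 366, 352 and 388 CPM at 12 months (log2 -1.45 ± 0.21, adjusted p = 0.00097; corrected -0.82 ± 0.18). Fendrr, which neighbours Foxf1 and is needed for development of the lung and heart, was at 249, 264 and 232 CPM at 3 months and 107, 99 and 50.9 CPM at 12 months (log2 -1.53 ± 0.23, adjusted p = 0.0011; corrected -1.91 ± 0.18). Ftx, from the X inactivation centre, was at 7.39, 8.59 and 8.82 CPM at 3 months and 4.3, 3.59 and 4.0 CPM at 12 months (log2 -1.06 ± 0.19, adjusted p = 0.0021). In all 3 RNAs the 12-month mice were below the 3-month mice, with the lowest Fendrr value in 12-month mouse 3. Of 256 antisense RNA genes 47 were lower and 7 higher (median -0.46), and 72 and 4 with the correction. Dnm3os, which lies within Dnm3 and hosts microRNAs, was at 3.0, 4.92 and 3.97 CPM at 3 months and 0.94, 0.881 and 1.11 CPM at 12 months (log2 -2.01 ± 0.29, adjusted p = 0.00100), but the sources used here do not say whether the counting used strand, so reads of an antisense gene and its partner cannot be told apart. These RNA classes were grouped by the deposited gene type after results were known. Without 3-month mouse 2, 52 lincRNA and 20 antisense genes were lower and 4 and 2 higher, without 3-month mouse 3, 25 antisense genes were lower and 6 lincRNA and 1 antisense genes higher, without 12-month mouse 2, 9 lincRNA genes were higher, and without 12-month mouse 3, 13 antisense genes were.

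Zinc finger genes with Zfp symbols, mostly DNA-binding repressors, were lower in 75 of 327 and higher in 21 (median -0.38). With the correction 49 were lower and 9 higher (median -0.15). Over all tested genes 17.1% were called lower and 19.0% higher, and 13.9% and 14.7% with the correction. The corrected share of lower zinc finger genes was thus close to that over all genes, and the share of higher ones was below it. Zfp641 was at 34, 40.5 and 35.2 CPM at 3 months and 17.2, 11.2 and 10.2 CPM at 12 months (log2 -1.50 ± 0.20, adjusted p = 0.00073; corrected -1.32 ± 0.15). Zfp365, a guard of genome stability, was at 23.3, 30.5 and 30.5 CPM at 3 months and 14.8, 14.1 and 12.7 CPM at 12 months (log2 -1.02 ± 0.16, adjusted p = 0.0012). The ages did not overlap in either gene. The count of lower genes was 167 without 12-month mouse 3, 44 and 49 without 12-month mouse 1 or 2, and 37 without 3-month mouse 2 or 3, and that of higher genes 34 without 12-month mouse 3 and 13 without 3-month mouse 2.

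The largest single falls came from genes of varied function. Zfp366 (chr13:99184823-99247037), a dendritic cell transcription factor known as DC-SCRIPT, was at 3.46, 19.2 and 21.3 CPM at 3 months and 2.18, 1.82 and 0.983 CPM at 12 months (log2 -3.11 ± 0.57, adjusted p = 0.0028). Uprt, named for uracil salvage, was at 0.739, 4.07 and 3.67 CPM at 3 months and 0.544, 0.315 and 0.328 CPM at 12 months (log2 -2.77 ± 0.58, adjusted p = 0.0043). Hipk2, a kinase of p53, was at 8.31, 38.1 and 64.8 CPM at 3 months and 7.87, 7.93 and 3.8 CPM at 12 months (log2 -2.49 ± 0.58, adjusted p = 0.0092). Cep85l, a centrosomal protein, was at 2.26, 8.89 and 12.2 CPM at 3 months and 1.63, 1.57 and 1.9 CPM at 12 months (log2 -2.18 ± 0.47, adjusted p = 0.0049). In each of these 4 genes 3-month mouse 1 was the lowest of its age, close to the 12-month mice, so the size of the fold changes comes from 3-month mice 2 and 3. The call for Hipk2 was lost without 12-month mouse 2 or 3. Efcab4b, another of the largest falls, had the same pattern (log2 -2.12 ± 0.45, adjusted p = 0.0045). It was at 2.22, 9.8 and 9.35 CPM at 3 months and 1.83, 1.89 and 1.11 CPM at 12 months. Armcx4, an armadillo repeat gene, had an even fall, with 35.9, 53.3 and 46 CPM at 3 months and 11.1, 7.17 and 10.9 CPM at 12 months (log2 -2.21 ± 0.23, adjusted p = 0.00037; corrected -1.61 ± 0.22). Phex, an endopeptidase of phosphate balance, was at 3.6, 5.83 and 3.85 CPM at 3 months and 0.792, 0.566 and 1.44 CPM at 12 months (log2 -2.25 ± 0.34, adjusted p = 0.0011). Ncam1, a neural cell adhesion molecule, was at 1.62, 2.41 and 2.19 CPM at 3 months and 0.544, 0.755 and 0.131 CPM at 12 months (log2 -2.08 ± 0.44, adjusted p = 0.0043). Of 18 genes of neutrophil granules and surface 1, Ltf, was called higher and 2, Mpo and Camp, lower (median -0.10), and none and 3 with the correction. Mpo, myeloperoxidase, was at 3.33, 3.27 and 2.19 CPM at 3 months and 0.247, 0 and 1.31 CPM at 12 months (log2 -2.54 ± 0.70, adjusted p = 0.014). Camp, cathelicidin, was at 15, 13.5 and 8.17 CPM at 3 months and 1.34, 0.189 and 6.09 CPM at 12 months (log2 -2.30 ± 0.71, adjusted p = 0.029). Both calls were lost without 12-month mouse 1 or 3-month mouse 2, and that of Camp also without 3-month mouse 1 or 3, while 7 genes of this list were lower without 12-month mouse 3. The authors' deposited table gives them adjusted p = 0.187 and 0.160. Adap2os, an antisense RNA gene, was at 1.39, 2.96 and 1.89 CPM at 3 months and 0.346, 0.252 and 0.262 CPM at 12 months (log2 -2.81 ± 0.42, adjusted p = 0.0010).

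Further rises were those of receptors, scaffolds and enzymes. Grm4, a glutamate receptor, was at 2.4, 2.46 and 3.08 CPM at 3 months and 13.7, 17.1 and 11.7 CPM at 12 months (log2 2.42 ± 0.24, adjusted p = 0.00027; corrected 1.91 ± 0.21). Chia1, a chitin-degrading enzyme of the lung and stomach, was at 86.2, 57.3 and 78 CPM at 3 months and 259.6, 238 and 225 CPM at 12 months (log2 1.71 ± 0.18, adjusted p = 0.00037; corrected 1.65 ± 0.14). Grip2, a scaffold of glutamate receptors, was at 0.924, 1.0 and 0.829 CPM at 3 months and 7.87, 5.09 and 5.63 CPM at 12 months (log2 2.75 ± 0.29, adjusted p = 0.00040). Dkkl1, related to the Dickkopf proteins, was at 1.39, 0.753 and 1.18 CPM at 3 months and 8.02, 7.86 and 5.37 CPM at 12 months (log2 2.67 ± 0.28, adjusted p = 0.00037). In these 4 genes the 6-month mice, at 3.8, 6.22 and 5.28, 115, 145 and 153, 2.49, 2.48 and 1.46 and 2.68, 2.25 and 2.71 CPM, lay between the 2 other ages, and all 4 calls held in every setting. Rnf111 and Trim56, ubiquitin ligases, had some of the smallest p among falls that both fits called, with -1.38 ± 0.15 and -1.56 ± 0.17. Trim56, which acts in antiviral defence, was at 97.3, 142 and 148 CPM at 3 months and 46, 44.6 and 41.4 CPM at 12 months. Neurl1a, also a ubiquitin ligase, rose, with 10.02, 11.6 and 11.5 CPM at 3 months and 25.5, 31.6 and 30.3 CPM at 12 months (log2 1.40 ± 0.15, adjusted p = 0.00044). Aqp7, a glycerol channel of fat cells, was at 0.231, 0.201 and 0.473 CPM at 3 months and 1.39, 2.2 and 3.27 CPM at 12 months (log2 2.92 ± 0.73, adjusted p = 0.0096), a call lost without 3-month mouse 2.

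**Figure D5:**
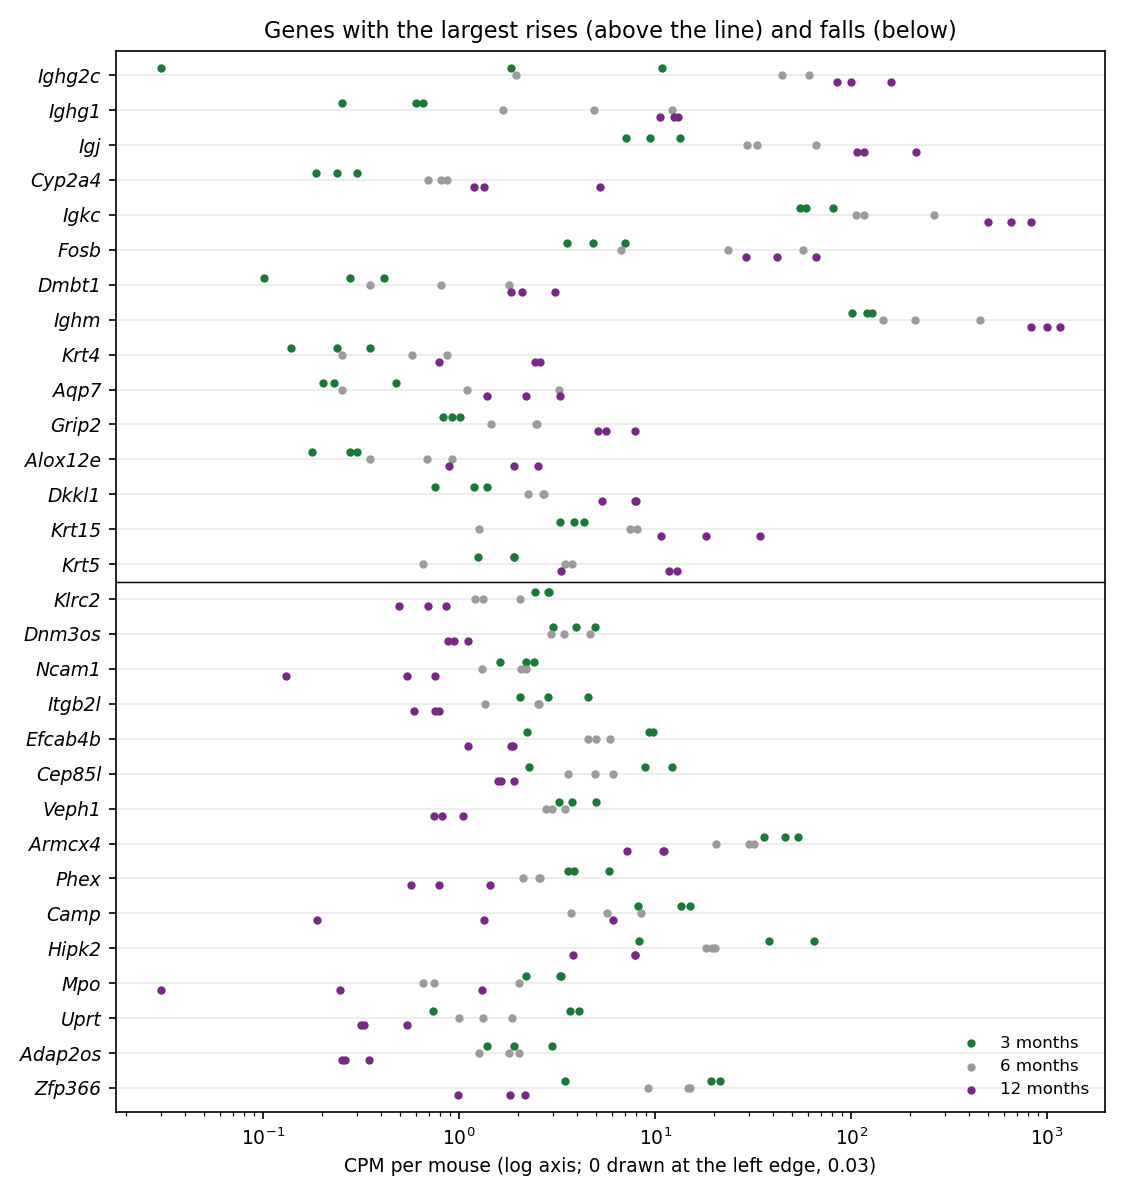
Level in CPM (log axis) of each mouse of 3, 6 and 12 months for the 15 genes with the largest rises (above the line) and the 15 with the largest falls (below it), a 0 being drawn at the left edge. The 3-month and 12-month mice do not overlap in any gene because that was a condition for inclusion. In Zfp366, Uprt, Hipk2, Cep85l and Efcab4b 3-month mouse 1 lies close to the 12-month mice.

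Markers of tissues beside or around the lung moved as well. Of 18 genes of heart and pulmonary vein muscle, which extends into the mouse lung, 10 were called higher and 1 lower (median 1.01). With the correction 5 were higher and 1 lower. The summed levels of the 18 genes were 474 to 825 CPM at 3 months and 999.7 to 1050 CPM at 12 months. At 6 months the sum ran from 447 to 1077 CPM, a range that spans both other ages. Myl4, an atrial myosin light chain, was at 56.7, 36.4 and 28.4 CPM at 3 months and 108, 107 and 120.3 CPM at 12 months (log2 1.46 ± 0.30, adjusted p = 0.0040). Actc1, cardiac actin, was at 109, 68.9 and 53.3 CPM at 3 months and 170.5, 161 and 141 CPM at 12 months (log2 1.03 ± 0.24, adjusted p = 0.0068). Of 18 adipose genes 7 were higher and none lower (median 1.00), and 2 and none with the correction. Their sums of 523 to 594 CPM at 3 months and 530.1 to 894 CPM at 12 months overlapped. The adipose sum at 6 months ran from 429 to 1127 CPM. Lep, leptin, was at 1.11, 0.603 and 1.66 CPM at 3 months and 3.96, 4.91 and 3.8 CPM at 12 months (log2 1.92 ± 0.39, adjusted p = 0.0037). Cidea, a lipid droplet protein of brown fat, was at 1.66, 1.46 and 1.12 CPM at 3 months and 4.35, 10 and 8.06 CPM at 12 months (log2 2.38 ± 0.32, adjusted p = 0.00073). Of 9 tested skeletal muscle genes 1, Ckm, was higher and none lower, and 1 and 1 with the correction. Of 8 genes of thymus and lymph node 4 were higher and 1 lower, and 2 and 1 with the correction. The Y-linked genes Ddx3y, Kdm5d, Eif2s3y and Uty, present in all male cells, were at 30.8, 19.3 and 59.1, 15.4, 11.5 and 21.3, 24.6, 21.1 and 43.9 and 8.95, 8.55 and 19.1 CPM in the 12-month mice against 65.3, 71.3 and 72.7, 22, 31.1 and 28.1, 48.1, 40.1 and 45.9 and 15.8, 17.7 and 19.9 CPM in the 3-month mice, with 12-month mice 1 and 2 lowest. Ddx3y and Kdm5d were called lower, calls that did not hold when any one of 12-month mice 1 and 2 and 3-month mice 2 and 3 was left out, and Kdm5d was not called with the correction (-0.20 ± 0.13, adjusted p = 0.27). The part of tissue makeup in the results above was not tested. The heart count was 5 without 12-month mouse 2, 2 without 12-month mouse 3 or 3-month mouse 2, and 3 without 3-month mouse 3, the adipose count 4 without 12-month mouse 2 or 3 or 3-month mouse 2, and the thymus count 2 without 12-month mouse 3 and 1 without 3-month mouse 2 or 3.

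Of 13 red cell genes 1 was called higher and 3 lower (median 0.10), and none and 4 with the correction. Platelet genes had values above 0 in 3 of 15 (median -0.27), with none called higher and 2 lower, and none and 2 with the correction (median -0.60). Leaving out 3-month mouse 1 gave 6 higher red cell genes, and 7 platelet genes were lower without 12-month mouse 3. Slc4a1, the anion exchanger of red cells, was at 10.6, 12.9 and 11.2 CPM at 3 months and 3.22, 1.64 and 5.37 CPM at 12 months (log2 -1.77 ± 0.37, adjusted p = 0.0041). It was lower in every 12-month mouse, while Alas2, the first enzyme of haem synthesis in red cells, was higher (0.60 ± 0.17), a call lost without 12-month mouse 1 or 3-month mouse 2 and with the correction (0.38 ± 0.14, adjusted p = 0.065).

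Many genes also differed between 12 and 6 months. The contrast of 12 with 6 months, which is the test of whether the 12-month and the 6-month change from 3 months differ, called 3176 genes (20.0%), 1734 higher (10.9%) and 1442 lower (9.06%), and 2291 (14.4%) with the correction, 1082 higher (6.80%) and 1209 lower (7.60%). By group, 70 of 81 ribosomal protein genes, 19 of 35 respiratory chain subunits and 22 of 53 heavy chain V segments were higher at 12 than at 6 months, and 9 of 29 collagen chains, 46 of 376 lincRNA genes and 5 of 22 clock genes were lower. Nr4a2 was at 10.7, 10.3 and 12.9 CPM at 6 months, close to its 3-month values, and differed between 12 and 6 months by -1.38, adjusted p = 0.0045. Plagl1 was at 38.9, 29.6 and 40.6 CPM at 6 months and differed by -1.44, adjusted p = 0.0032. Other genes called at 12 against 3 months were not called at 12 against 6 months. C4b was at 517, 671 and 689 CPM at 6 months, nearer to its 12-month than to its 3-month values (difference 0.24, adjusted p = 0.36). Nr4a1 was at 115, 96.7 and 89.1 CPM at 6 months, above every 12-month value (difference -0.38, adjusted p = 0.17), and Ighg1 at 12.1, 1.67 and 4.88 CPM, with a wide spread (difference 0.96, adjusted p = 0.15).

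The authors' deposited table marks 4653 of 17104 genes with an adjusted p as significant for 12 against 3 months, 2343 higher and 2310 lower, and all marked genes have an absolute log2 fold change of at least 0.4. Of these, 4590 were also among the 5748 genes called here, in the same direction.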

How the data were processed

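The deposited table gives raw counts of reads per gene for 12 lung libraries, and these were the values tested. FPKM per library and per age, computed by the authors, and signal values deposited as means of scaled reads per age were not used. The authors also deposited log2 fold changes and p-values for each age against 3 months, per the file headers (tool not given in the sources used here). Signal columns left unused because they repeat 3 months for another comparison number 2. TopHat, STAR 2.5 and HTSeq 0.6.1 are named in the submitters' processing notes with no role, with build mm10. Strand use, multi-mapped reads and annotation are not stated there.

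Members, gene lists and tests were chosen with earlier results of these data known. Libraries of 3, 6 and 12 months were filtered with filterByExpr, scaled with TMM and fitted with edgeR's quasi-likelihood F test with robust dispersions (edgeR 4.0.16, limma 3.58.1, R 4.3.3). The contrast was 12 minus 3 months, with Benjamini-Hochberg adjustment over all tested genes. SE is the fold change over the root of F. The labels state separate mice but no batch. CPM used TMM library sizes, and 3 reads, the limit that a count of 0 allows, correspond to 0.139 to 0.197 CPM in the 6 libraries. The correction entered each library's smooth on GC content and deposited gene length (mgcv 1.9.3) as an offset. GENCODE M21 transcripts gave GC content for 97.8% of genes.

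Named genes are the 15 largest rises and falls past the 0.05 threshold with at least 1 CPM on average and no overlap between ages, up to 4 members of each list with the smallest p, 15 fixed genes, and 5 genes called in both fits with the smallest p. Gene models, clones, pseudogenes and V segments were left out of the first of these. Some further list members were named after their values were seen. Alternatives were RLE size factors, DESeq2 1.42.0, limma voom, other read filters, other sets of libraries, mouse number as a block, GC content alone, and leaving out each mouse. Mouse numbers did not pair the libraries, with residual correlations of -0.059 to 0.0323 for same-number pairs and -0.107 to 0.141 for the others.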

Additional observations from a re-analysis of the deposited data

Results flagged for a closer look

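The change from 3 to 12 months differed from that between 3 and 6 months, tested as the contrast of 12 with 6 months in the same edgeR fit, for 3176 of 15908 genes (1734 higher and 1442 lower at 12 months). With the correction the count was 2291.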

How the results depend on the processing

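With all 12 libraries in the fit, 1010 genes were higher and 1423 lower at 12 months, and the cause was not tested. Leaving out 1 mouse gave 1499 to 4253 genes higher and 1294 to 4269 lower. Both counts stayed within 1.5 times the reported ones under RLE size factors, DESeq2, limma voom and both other filters. They also did under GC content alone, the joint correction and the 6 libraries alone. The 6 libraries alone came near that limit for higher genes, with 2020 higher and 1942 lower. In that fit 19 named genes lost their call. There 11 respiratory chain subunits and 2 class I genes were called higher, against 24 and 7 in the main fit. The fit with the replicate block gave 2931 higher and 2976 lower, and 3258 genes differed between 12 and 6 months. Joined with the correction it gave 2087 and 2085. The block ended the calls of 7 named genes, among them Hipk2, Camp and Ighg2c. Directions reversed for 4 genes. Under GC content alone, the joint correction, and the joint correction with the replicate block, Eln had -0.35, -0.36 and -0.37, Dbp -0.26, -0.36 and -0.36 and Cdkn2a -0.0333, -0.0721 and -0.0497. Scgb1a1 had -0.68 and -0.67 under the last 2 of these. Of the named genes, 53 lost their call without 3-month mouse 2, 37 without 3-month mouse 3, 67 with all 12 libraries, 48 with the correction, and none under RLE size factors, limma voom or a mean CPM of at least 1. Genes under 1 CPM rest on few reads, and no difference there means that none was detectable at this depth.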

Other observations

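Several smaller groups were not described above. Mesothelial genes, which mark the pleural lining, were higher in 4 of 13 and lower in none, and in 3 and none with the correction. Krt19 and Krt8, keratins shared with airway epithelium, were at 268, 206 and 226 CPM at 3 months and 402, 528 and 427 CPM at 12 months (log2 0.95 ± 0.16, adjusted p = 0.0016) and at 292, 235 and 282 CPM at 3 months and 448, 626 and 475 CPM at 12 months (log2 0.94 ± 0.16, adjusted p = 0.0020), while Msln, mesothelin, was at 94.9, 91.1 and 122 CPM at 3 months and 133, 179 and 134 CPM at 12 months and lost its call with the correction (0.17 ± 0.16, adjusted p = 0.44) and without 12-month mouse 2 or 3-month mouse 1 or 2. Without 3-month mouse 2, 2 mesothelial genes were called. Dendritic cell genes were higher in 2 of 16 and lower in 2, and in 3 and 2 with the correction. Cd83, a marker of mature dendritic cells, was at 12.6, 10.8 and 10.7 CPM at 3 months and 19.6, 19.1 and 13.9 CPM at 12 months (log2 0.62 ± 0.17, adjusted p = 0.015). Clec9a, a receptor of cross-presenting dendritic cells, was at 43.1, 38.2 and 36.7 CPM at 3 months and 17.9, 12.9 and 34.6 CPM at 12 months (log2 -0.85 ± 0.27, adjusted p = 0.027). The call of Cd83 was lost without 12-month mouse 1 or 3-month mouse 2 or 3, and that of Clec9a without any one mouse other than 12-month mouse 3.

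Among 3 lambda V segments Iglv1 was at 3.97, 2.36 and 3.26 CPM at 3 months and 25.8, 10.8 and 31.1 CPM at 12 months (log2 2.82 ± 0.39, adjusted p = 0.00088) and Iglv2 at 0.601, 0.402 and 0.355 CPM at 3 months and 1.78, 2.2 and 5.31 CPM at 12 months (log2 2.72 ± 0.53, adjusted p = 0.0030), while Iglv3, at 1.52, 1.46 and 1.06 CPM at 3 months and 1.78, 1.07 and 1.77 CPM at 12 months, was not called (log2 0.19 ± 0.43, adjusted p = 0.75; corrected -0.92 ± 0.39). Of 21 metalloproteases and inhibitors 3 were higher and 4 lower, and 3 and 5 with the correction. Timp4, an inhibitor of these proteases, was at 3.33, 2.61 and 2.78 CPM at 3 months and 6.08, 7.74 and 4.91 CPM at 12 months (log2 1.10 ± 0.25, adjusted p = 0.0065). Mmp15, a membrane-bound protease, was at 166, 216 and 225 CPM at 3 months and 358, 358 and 387 CPM at 12 months (log2 0.86 ± 0.16, adjusted p = 0.0026). That list had 5 higher without 12-month mouse 3, and 2 lower without 12-month mouse 2 or 3-month mouse 2. Replication-dependent histone genes, whose mRNAs mostly lack poly(A) tails, were tested in 13 of 70, with 3 higher and none lower, and 1 and none with the correction. Of these, Hist1h4h was at 2.49, 2.26 and 1.89 CPM at 3 months and 4.4, 4.91 and 5.9 CPM at 12 months (log2 1.18 ± 0.23, adjusted p = 0.0033). Ltf, lactoferrin of neutrophil granules and airway glands, was at 131, 137 and 127 CPM at 3 months and 180.3, 401 and 362 CPM at 12 months (log2 1.26 ± 0.39, adjusted p = 0.025), but its call was lost without any one mouse other than 12-month mouse 1, and with the correction (1.21 ± 0.47, adjusted p = 0.087).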
